A study of Mus musculus with 13 samples.

Results

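The genotype comparison of untreated mice set brain RNA from R6/2 mice against brain RNA from wild type mice, neither of which had been given drugs. It used 7 of the 13 arrays of the series, chosen by their titles. These were the 4 arrays titled R6/2 untreated and the 3 titled wild type untreated. The tissue was given as the hemispheres of the whole brain, and the RNA was hybridised to the Affymetrix MG-U74Av2 mouse array. On this array each gene is read by 1 or more probe sets, each a group of short probes. The other 6 arrays came from mice of both genotypes, 3 each, that received tacrine at 2.7 mg/kg/day from week 5, moclobemide at 10 mg/kg/day and creatine at 1% w/v in the mash. The free-text descriptions list these drugs for the untreated mice too, so treatment was read from the titles alone. A harvest age, 8 weeks, is labelled for wild type untreated array 2 only. The labels give neither sex, strain background nor repeat length, and they do not state that each array was a separate animal. The p-values therefore measure the spread between these arrays, which may be technical.

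The R6/2 mouse carries a transgene made of exon 1 of human huntingtin with a long CAG repeat, driven by the human huntingtin promoter, beside its own intact mouse Htt alleles. The protein fragment it makes has an expanded glutamine tract, enters nuclei and forms inclusions in many brain regions, and the mice develop a severe early movement disorder. In Huntington's disease the medium spiny neurons of the striatum are the cells most affected. These neurons release GABA, receive dopamine and glutamate, and store enkephalin, dynorphin or substance P. Mutant huntingtin is known to bind transcription factors and cofactors, among them CREB-binding protein, and to disturb transcription. The question was which genes differed between the genotypes across the array, and which of the differences held without the 2 R6/2 arrays that varied most.

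R6/2 untreated arrays 2 and 3 lay farthest from wild type before any gene was tested. On the first principal component, which took 53.1% of the variance of the 7 arrays, the wild type arrays scored -20.5 to -19.5, R6/2 arrays 1 and 4 scored 0.84 and -1.21, and R6/2 arrays 2 and 3 scored 19.8 and 41.0. The residual SD on the log2 scale, around the mean of the group, was 0.189 to 0.208 in wild type arrays. It was 0.294, 0.249, 0.380 and 0.299 in R6/2 arrays 1 to 4. By this measure array 3 was the highest, and array 2 was the lowest of the R6/2 arrays. Median signal was 39.6 to 43.85 over the 7 arrays. The Affymetrix control rows of R6/2 arrays 2, 3 and 4 were those of another R6/2 array (treated 1, treated 3 and untreated 1) multiplied by 1.2, in 66 of 66 rows to within 0.05 of that ratio, so they gave no separate measure of RNA quality. An array has no read depth, and precision depends on how many arrays there are, on their spread and on the level of the signal. Neuronal markers were present in every array. Snap25, a protein of the synaptic vesicle fusion machinery, had signals of 2680 to 3167 in wild type and 2319 to 4167 in R6/2 mice, and the summed signal of the 7 measured neuron markers was 8990 to 9315 in wild type and 7138 to 8522 in R6/2 arrays. None of the 7 was called, but Syt1, Eno2 and Thy1 lay lower without overlap, at -0.70, -0.37 and -0.35. Their part in the falls of other neuronal genes was not tested.

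Of 7453 probe sets bright enough to be tested, 253 differed between the genotypes at a limma adjusted p under 0.05, which is 3.39% of those tested. Lower signal in R6/2 mice was the more common direction. There were 159 probe sets called lower (2.13%) and 94 called higher (1.26%), and they named 138 and 83 genes. The falls were also the larger. Their median log2 difference was -1.03 against 0.84 for the rises, and 81 falls but 28 rises exceeded 2-fold. The median wild type signal was 192 for the falls and 70.6 for the rises, beside 101 over all probe sets tested. Wild type is the higher group for a fall and the lower for a rise, so part of this gap is built in. The signals of the genotypes did not overlap at 26.3% of all probe sets tested (14.1% higher and 12.2% lower in R6/2 mice), and at all 253 called. The smallest adjusted p was 0.00390, for Bhlhe40. Without adjustment for the number of tests, 1998 probe sets had a p under 0.05. The balance of rises and falls depends on scaling. With each array centred on its median, 347 probe sets were called, 269 lower and 78 higher. Below, "called" means this limma test with Benjamini-Hochberg adjustment over the 7453 probe sets. A log2 difference is R6/2 minus wild type, given with its standard error (SE).

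**Figure D1:**
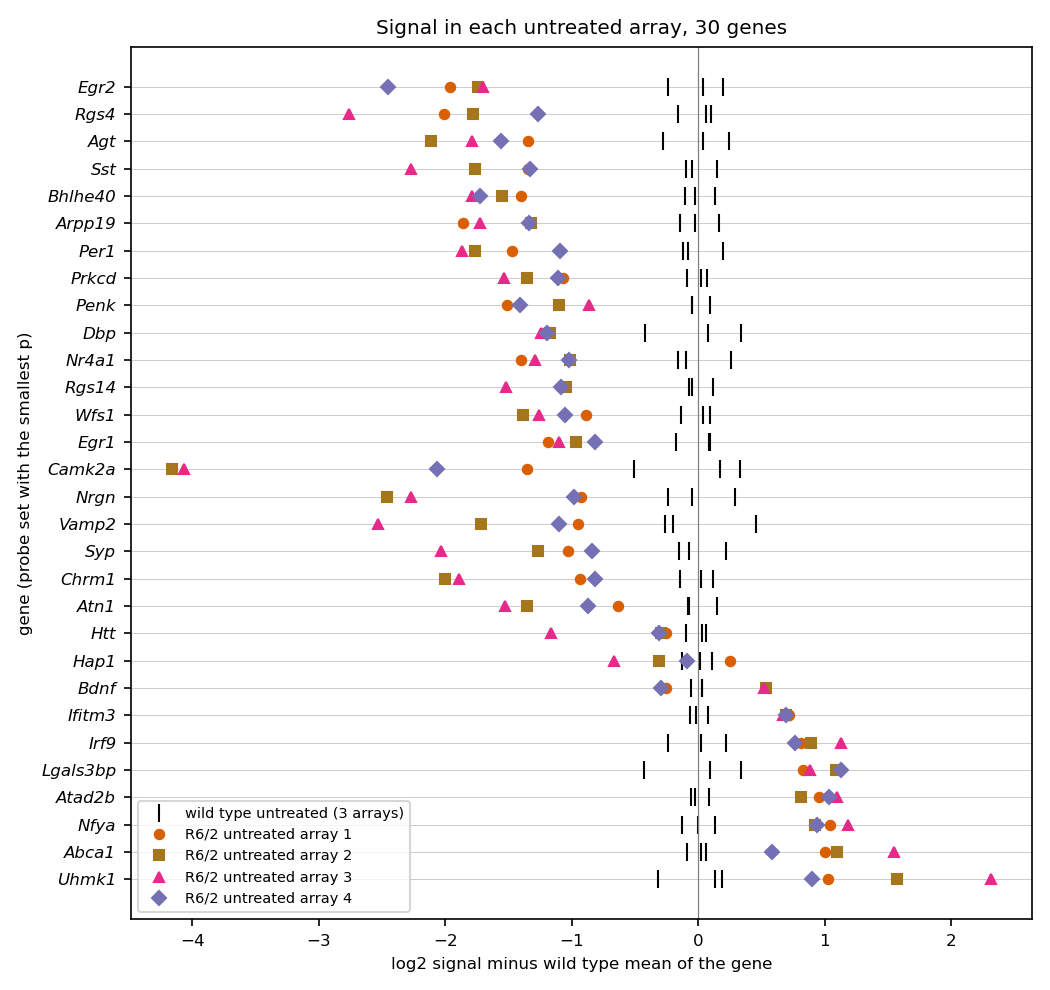
The horizontal axis is the log2 signal of an array minus the gene's wild type mean, and each row is a gene. Black ticks are the 3 wild type arrays and coloured symbols the 4 R6/2 arrays of untreated mice. Bhlhe40 and Ifitm3 moved alike in all 4 R6/2 arrays. Egr2 and Penk lay nearer to wild type in R6/2 arrays 2 and 3 than in the others, whereas Camk2a, Nrgn, Vamp2 and Chrm1 lay farthest there.

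Penk and 4 other genes listed for the striatal projection neuron fell. A listed gene need not be specific to these cells. The lists were written with earlier results of these data known, so their counts and medians are not independent support, here and below. Over all lists 81 of 918 tested genes were called on their brightest probe set, beside 194 of 5676 genes tested. Of 30 genes on the striatal list, 12 had a tested probe set of their own. Among these 5 fell, none rose, and the median log2 difference was -0.73, beside 0.04 over the 5676 genes tested. Of the genes tested, 2.13% were called lower and 1.29% higher, and those shares are the background of every list count below. Penk, the precursor of enkephalin in neurons of the indirect pathway, was read at 1787, 1787 and 1969 in wild type arrays 1 to 3 and at 646, 862, 1012 and 695 in R6/2 arrays 1 to 4. Every R6/2 array was below every wild type array, and the difference was -1.22 ± 0.16 (SE, limma adjusted p = 0.00831). Without R6/2 arrays 2 and 3 it was -1.46. A dimmer Penk probe set was at -0.80 and was not called. Arpp19, a phosphoprotein regulated by cyclic AMP whose relative Arpp21 marks striatal cells, was read at 341, 422 and 370 in wild type and at 104, 150, 114 and 149 in R6/2 mice, 2.95-fold lower on this probe set. Its second probe set showed -0.21 (adjusted p = 0.510), with overlapping groups.

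Of these 5 falls, 3 encode signalling proteins. Pde1b, a phosphodiesterase activated by calmodulin, fell by 1.05 on the log2 scale, with signals of 543 to 794 in wild type and 252 to 405 in R6/2 arrays. The neuronal calcium sensor Hpca fell by 0.84. Rasgrp2, an exchange factor that activates Rap, had signals of 153, 158 and 158 in wild type and 81.3, 68.6, 40.4 and 82.1 in R6/2 mice, with array 3 the lowest. Drd2, the D2 dopamine receptor, did not pass the test. Its signals were 87.4 to 96.4 in wild type and 40.3 to 66.7 in R6/2 arrays, without overlap, and the log2 difference was -0.76 ± 0.18 (SE, adjusted p = 0.0517). Because the tissue is a whole hemisphere, fewer cells of a type and less RNA per cell cannot be told apart, here and in what follows.

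Kalrn, which encodes a protein of dendritic spines, lay farther from wild type without R6/2 arrays 2 and 3, as Penk did. It was read at 838, 905 and 827 in wild type and at 391, 497, 683 and 408 in R6/2 mice. R6/2 array 3 was nearest to wild type, and the difference of -0.83 became -1.10 without R6/2 arrays 2 and 3. Kalrn was chosen after its values were seen.

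Of the neuropeptide genes, Sst, Npy and Cck fell. Of 17 tested genes of the peptide and secretory granule list, 4 fell (beside 2.13% of all genes tested) and none rose. A positive difference was seen in 5, and the median was -0.45. Sst, which encodes somatostatin of a class of GABA interneurons, was read at 731, 758 and 866 in wild type and at 307, 230, 162 and 311 in R6/2 mice. That is a difference of -1.68 ± 0.22 (SE, adjusted p = 0.00811), 3.20-fold, with R6/2 array 3 the lowest. Npy, neuropeptide Y, fell by 0.90 and Cck, cholecystokinin, by 0.73. Chga, the granule protein chromogranin A, fell by 0.80 on one probe set and differed by -0.13 on another. The somatostatin receptor gene Sstr2 fell as well, from 171, 96.5 and 152 to 57.7, 78.7, 32.8 and 55.7, a difference of -1.34 ± 0.29 (SE, adjusted p = 0.0435). The other 2 probe sets of Sstr2 also lay lower without overlap, at -0.73 and -0.59, and were not called.

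The lists holding receptors of the fast transmitters had falls and no rises. On the GABA and interneuron list 2 of 14 tested genes fell, beside 2.13% of all genes tested. Gabrd, the delta subunit of extrasynaptic GABA-A receptors, was read at 54.7, 56.3 and 61.0 in wild type and at 27.4, 7.60, 14.8 and 9.70 in R6/2 mice, and was called. Of the R6/2 signals 3 were under the filter of 24.5, so its size is uncertain. Gabra2, the alpha-2 subunit, fell by 1.03. Among 14 glutamate receptor and postsynaptic genes the falls were Nrgn, the calmodulin-binding neurogranin, at -1.66 ± 0.37 (SE, adjusted p = 0.0445), and Gria3, an AMPA receptor subunit, at -1.19 ± 0.27 (SE, adjusted p = 0.0477). Without R6/2 arrays 2 and 3 Gria3 was at -0.77 and was not called (adjusted p = 0.0777). Nrgn also rested partly on 2 arrays. Its signals were 894, 709 and 619 in wild type and 386, 133, 152 and 371 in R6/2 mice, and without R6/2 arrays 2 and 3 the difference was -0.95. The median of that list moved from -0.60 to -0.27 without those arrays.

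Of 17 tested receptors for monoamines, acetylcholine, peptides and neurotrophins, 3 fell (beside 2.13% of all genes tested) and none rose. Chrm1, the M1 muscarinic receptor, had signals of 208, 195 and 173 in wild type and 100, 47.8, 51.5 and 109 in R6/2 mice, and arrays 2 and 3 were again the lowest. Its difference was -1.41 in 4 R6/2 arrays and -0.88 without those 2. Adra2c, the alpha-2C adrenoceptor, was more even, at 190, 203 and 223 against 104, 120, 82.2 and 111, a difference of -0.99 ± 0.16 (SE, adjusted p = 0.0199).

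Ion channel lists held falls and no rises. Over all genes tested, 2.13% were called lower. Among 18 potassium channel genes, 2 fell, 16 had a negative difference and the median was -0.41. Kcna2, a voltage-gated channel of axons, fell by 1.14, and the inward rectifier Kcnj4 by 0.73. Of 14 sodium, calcium and HCN channel genes only Scn8a, the sodium channel of the axon initial segment, was called, at -0.67 ± 0.16 (SE), just under the threshold.

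Calcium, G protein and kinase signalling held some of the largest falls. Camk2a, the alpha subunit of calmodulin kinase II, had the largest log2 difference among called genes. It was read at 170, 106 and 189 in wild type and at 58.7, 8.4, 9 and 36 in R6/2 mice, a difference of -2.91 ± 0.63 (SE, adjusted p = 0.0427). R6/2 arrays 2 and 3 were the lowest, and without them the difference was -1.71. A second Camk2a probe set, at 80.1 to 140 in wild type and 2.90 to 51.6 in R6/2 arrays, missed the threshold at -3.03 (adjusted p = 0.0992), with R6/2 arrays 2 and 3 at 3.50 and 2.90, beside the floor of 3.1. Atp2b2, a plasma membrane calcium pump, fell by 1.65 and by 1.25 without those arrays. Calm2, a calmodulin gene, rose by 0.75.

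The RGS proteins shorten G protein signals by speeding GTP hydrolysis. Rgs4 was read at 151, 181 and 176 in wild type and at 41.9, 49.0, 24.9 and 70.1 in R6/2 mice, a fall of 3.88-fold. Rgs14 was read at 406, 457 and 400 against 199, 204, 147 and 199, a difference of -1.18 ± 0.15 (SE, adjusted p = 0.00748). Rgs16, chosen after its values were seen, fell by 0.94, while Rgs19 rose by 0.83 and its second probe set showed 0.58 without overlap. Members of this family thus moved in both directions. The brighter probe set of Rgs16, at -0.51, was not called. Over the list of 40 G protein, cyclic nucleotide and RGS genes, each on its brightest probe set, 2 fell, 1 rose and the median was -0.15.

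Prkcd, the kinase PKC delta that is abundant in thalamic relay neurons, fell on both of its probe sets. The values were 423, 380 and 410 in wild type and 192, 159, 140 and 188 in R6/2 mice on one, and the differences were -1.27 ± 0.15 (SE, adjusted p = 0.00534) and -1.30 ± 0.18 (SE, adjusted p = 0.00845). Akt2, a kinase of insulin signalling, fell by 1.19 and by 0.73 without R6/2 arrays 2 and 3. Sgk1, a kinase induced by glucocorticoids, fell by 0.69. Of 24 kinase genes these 3 were called on their brightest probe set, and 5 on any probe set. Prkcb and Prkce fell by 0.74 and 1.11 on one probe set each. Their brighter probe sets, at -0.16 and 0.25, were not called. Of 24 protein phosphatase genes 3 fell and 1 rose, with a median of -0.10. For both lists the shares over all genes tested were 2.13% lower and 1.29% higher. Dusp1 and Dusp6, which switch off MAP kinases, were among the falls. Dusp1 was read at 428, 333 and 377 in wild type and at 182, 253, 215 and 205 in R6/2 mice, and Dusp6 at 275, 286 and 277 against 184, 132, 177 and 127. The falls also held Ppp1r2, an inhibitor of protein phosphatase 1, at -0.64 on one probe set and 0.04 on another. Ptpro, a receptor tyrosine phosphatase, rose by 0.68, with signals of 126 to 144 in wild type and 200 to 238 in R6/2 arrays.

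The synaptic vesicle list held 4 falls, and its size depended on the arrays used. Of 30 tested genes, 25 had a negative difference, none rose, and the median of -0.42 became -0.25 without R6/2 arrays 2 and 3. In single R6/2 arrays 1 to 4 the median of the list lay -0.34, -0.43, -0.81 and -0.20 from the wild type mean. Syn2, synapsin II, was read at 865, 865 and 819 in wild type and at 447, 401, 428 and 540 in R6/2 mice. Syp, the vesicle membrane protein synaptophysin, was read at 573, 468 and 443 against 241, 205, 120 and 274. All 4 R6/2 arrays were low for Syn2, whereas array 3 was by far the lowest for Syp. Stx1a, the membrane SNARE syntaxin 1A, fell by 1.17 and Sncb, beta-synuclein, by 1.17, the latter at -0.71 without R6/2 arrays 2 and 3. The SNARE gene Vamp2 fell by 1.57 on one probe set, and by 1.03 without R6/2 arrays 2 and 3. Its brighter probe set, at 1980 to 2062 in wild type and 1418 to 1875 in R6/2 arrays, differed by -0.31 (adjusted p = 0.157).

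**Figure D2:**
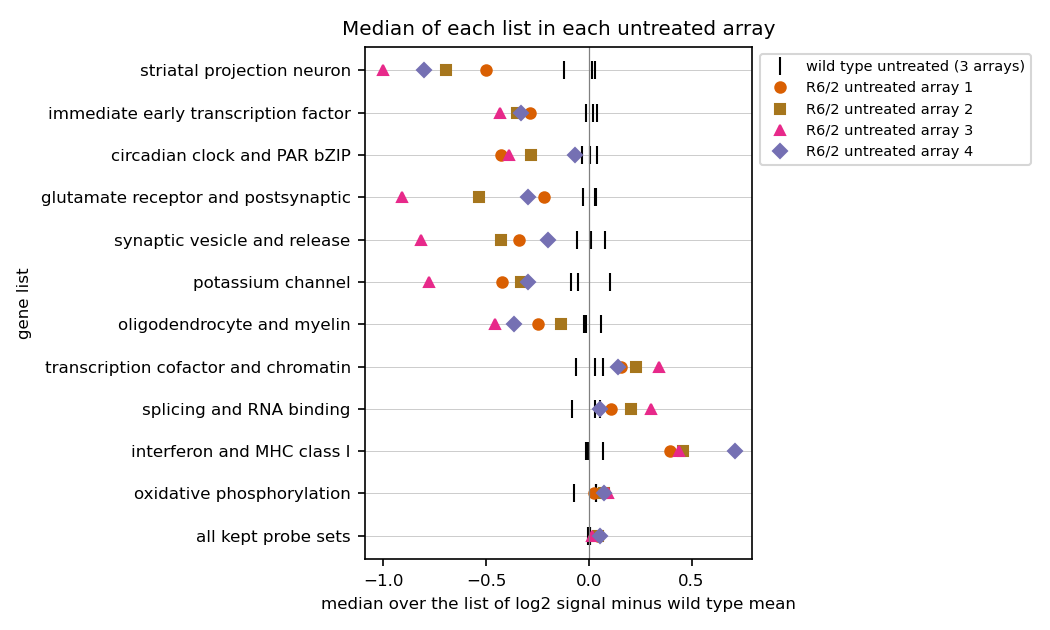
The horizontal axis is the median, over the tested genes of a list, of the log2 signal minus the wild type mean, and each row is a list. Black ticks are wild type arrays, and coloured symbols are R6/2 arrays of untreated mice. The glutamate, synaptic vesicle and potassium channel lists lay lowest in R6/2 array 3, at -0.91, -0.81 and -0.78, while the interferon list lay between 0.39 and 0.71 in the 4 R6/2 arrays.

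Immediate early transcription factors are switched on within minutes by synaptic activity through CREB and the serum response factor. Of 18 tested, 5 fell (beside 2.13% of all genes tested), none rose, and the median was -0.30. Egr2 was read at 120, 88.8 and 107 in wild type and at 26.9, 31.3, 32.1 and 19.1 in R6/2 mice, 3.90-fold lower, at -1.96 ± 0.22 (SE, adjusted p = 0.00534). Egr1 was read at 662, 663 and 551 against 274, 319, 291 and 353, 2.02-fold lower. The nuclear receptor gene Nr4a1 was read at 422, 314 and 328 against 133, 174, 144 and 173. In these 3 genes the 4 R6/2 arrays were close together, and no array of one genotype reached the other. Nr4a2 fell by 1.00 on one probe set and differed by -0.46 on another, and Ier2 fell by 0.84. Junb, on a probe set that was not the brightest for the gene, fell by 2.58, with signals of 134 to 200 in wild type and 17.2 to 49.3 in R6/2 arrays. Its other probe set showed -0.18 with overlapping groups. Of 15 effector genes induced by activity only Nptx2, a synaptic pentraxin, was called, at -0.96. Bdnf, the neurotrophin, was read at 184, 174 and 184 in wild type and at 152, 262, 260 and 148 in R6/2 mice, so that 2 arrays lay above and 2 below wild type (0.13 ± 0.22, SE, adjusted p = 0.737).

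Clock genes fell in part. Of 17 tested genes of the circadian clock and the PAR bZIP family, 3 fell (beside 2.13% of all genes tested) and none rose. Bhlhe40, the clock repressor DEC1, was read at 279, 250 and 236 in wild type and at 96.1, 86.8, 73.4 and 76.9 in R6/2 mice, a difference of -1.62 ± 0.15 (SE, adjusted p = 0.00390). Per1 was read at 234, 283 and 227 against 89.1, 72.5, 67.7 and 116, at -1.55. Dbp, an output factor of the clock, was read at 64.7, 91.3 and 109 against 37.1, 38.3, 36.5 and 37.7, at -1.21. In all 3 genes the groups were far apart. The labels used here give no hour of harvest. Per1 is also induced by glucocorticoids, and with Sgk1, Mt1 and Mt2 it made up the 4 falls among 15 tested genes of the glucocorticoid and metallothionein list.

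Promoters of called genes were read for the cyclic AMP response element, the site that CREB binds in genes such as Sst. The motif TGACGTCA, the same on both strands, was searched in the window from 250 bases before to 50 bases after each transcription start in the RefSeq table of GRCm38.p6. It stood in a promoter of 4 of 106 genes called lower that had an entry (3.77%), 3 of 67 called higher (4.48%), 163 of 4575 tested genes (3.56%) and 549 of all 27025 genes of the table (2.03%). The shares among falls and rises were thus close to that of all tested genes. The genes were Sst, Sstr2, Dusp1 and Slc25a25 among the falls and Atad2b, Akirin1 and Slc25a36 among the rises. The promoters of 3 falls described here and of the rise Atad2b follow, with the element in capitals. That of Sst is chr16:23890795-23891094, minus strand, with the element beginning 48 bases before the start. Those of Sstr2, chr11:113619077-113619376, plus strand, and Dusp1, chr17:26508423-26508722, minus strand, hold it 58 and 143 bases before the start. That of Atad2b is chr12:4917103-4917402, plus strand, with the element 76 bases before.
Sst: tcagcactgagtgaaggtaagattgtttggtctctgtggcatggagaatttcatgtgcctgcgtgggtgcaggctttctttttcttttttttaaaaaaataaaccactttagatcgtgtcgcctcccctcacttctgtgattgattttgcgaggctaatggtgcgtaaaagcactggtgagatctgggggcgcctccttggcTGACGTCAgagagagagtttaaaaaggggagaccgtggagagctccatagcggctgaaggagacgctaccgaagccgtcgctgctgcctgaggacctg
Sstr2: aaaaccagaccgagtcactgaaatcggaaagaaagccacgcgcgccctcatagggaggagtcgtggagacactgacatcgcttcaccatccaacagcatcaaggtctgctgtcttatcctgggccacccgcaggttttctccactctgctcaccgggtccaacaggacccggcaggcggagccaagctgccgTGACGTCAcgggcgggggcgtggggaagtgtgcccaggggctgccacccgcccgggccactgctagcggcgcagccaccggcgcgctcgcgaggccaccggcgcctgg
Dusp1: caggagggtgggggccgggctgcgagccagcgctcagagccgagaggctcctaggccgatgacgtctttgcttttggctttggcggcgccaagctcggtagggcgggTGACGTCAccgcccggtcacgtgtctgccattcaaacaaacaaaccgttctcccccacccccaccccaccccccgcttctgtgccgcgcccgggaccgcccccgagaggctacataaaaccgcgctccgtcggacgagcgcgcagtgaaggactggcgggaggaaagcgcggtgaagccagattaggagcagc
Atad2b: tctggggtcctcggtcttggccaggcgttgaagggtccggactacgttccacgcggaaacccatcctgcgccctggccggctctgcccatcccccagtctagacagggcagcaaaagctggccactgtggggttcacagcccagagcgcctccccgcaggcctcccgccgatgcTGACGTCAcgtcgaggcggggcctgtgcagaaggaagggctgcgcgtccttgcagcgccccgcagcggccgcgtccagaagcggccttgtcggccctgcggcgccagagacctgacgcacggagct

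Other elements were searched on both strands in the same windows. The E-box CACGTG, bound by clock proteins, stood in 15.1% of genes called lower, 10.4% called higher and 12.98% of tested genes. The EGR site GCGGGGGCG stood in 10.4%, 7.46% and 7.15%. The CCAAT box CCAAT, bound by NF-Y, stood in 36.8%, 47.8% and 43.1%. The GC box GGGCGG, common in promoters rich in CpG, stood in 81.1%, 80.6% and 70.7%. These are descriptions of letters, with no test.

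Among glial genes, the astrocyte list had 3 falls of 19 and a median of -0.40. Here and for the other lists below, 2.13% of all genes tested were called lower. Agt, angiotensinogen, was read at 160, 199 and 229 in wild type and at 76.3, 44.8, 56.3 and 66.0 in R6/2 mice, at -1.70 ± 0.20 (SE, adjusted p = 0.00618), 3.25-fold lower. The metallothioneins Mt1 and Mt2, which bind zinc and copper, fell by 1.06 and 0.58. Bcan, the brain proteoglycan brevican, fell by 1.12, from 331, 391 and 408 to 178, 159, 176 and 179, and was the only call among 39 extracellular matrix and adhesion genes. Of 18 oligodendrocyte genes 2 fell on their brightest probe set. These were Ugt8a, which makes myelin galactolipids, at -1.37, and Sgk1. Mobp, a myelin protein, had 4 tested probe sets at -1.79, -1.30, -1.20 and -0.73, of which the first 3 were called and the last missed the threshold (adjusted p = 0.0517). None of 14 microglia and complement genes was called by limma, their median was 0.01, and the lowest adjusted p was 0.0743, for Ctss at 0.72.

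Sterol and lipid genes moved in both directions. Mvd, an enzyme of the mevalonate pathway, was read at 55.8, 55.9 and 56.4 in wild type and at 22.5, 31.5, 10.4 and 17.0 in R6/2 mice, where 3 arrays were under the filter, and was called at -1.57. Fads1, a fatty acid desaturase, fell by 0.57. Abca1, which exports cholesterol from cells, rose by 1.06, with signals of 65.9 to 73.3 in wild type and 105 to 205 in R6/2 arrays, while its other probe set showed -0.23 with overlapping groups.

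Genes induced by interferon were among the rises. Of 24 tested genes of the interferon and MHC class I list 5 were called higher (beside 1.29% of all genes tested) and none lower. In 22 the difference was positive, and the median of the list was 0.45, or 0.47 without R6/2 arrays 2 and 3. Ifitm3, a membrane protein that blocks virus entry, was read at 124, 113 and 116 in wild type and at 193, 191, 187 and 190 in R6/2 mice, 1.62-fold higher, at 0.69 ± 0.12 (SE, adjusted p = 0.0252). Irf9, a subunit of the interferon-activated factor ISGF3, was read at 76.4, 55.6 and 66.5 against 115, 122, 144 and 112. The R6/2 arrays were even, with every one above wild type. The secreted glycoprotein Lgals3bp rose by 0.98, the GTPase Gbp7 by 0.88 and Ifit3 by 1.06. None of the tested MHC class I genes was among the 5, and H2-K1 and H2-D1 differed by 0.24 and 0.29 with overlapping groups. H2-K2 differed by 2.07 and was not called (adjusted p = 0.0788). Of these 5, Ifitm3 alone passed the test without R6/2 arrays 2 and 3 (adjusted p = 0.0295).

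Transcription cofactors and chromatin genes had calls both ways, 5 higher and 2 lower of 41. Over all genes tested the shares were 1.29% and 2.13%. Atad2b, a bromodomain ATPase, was read at 127, 117 and 115 in wild type and at 232, 210, 256 and 244 in R6/2 mice, at 0.97 ± 0.13 (SE, adjusted p = 0.00831), 1.97-fold higher. The subunits of the CCAAT-binding factor NF-Y did not all move one way. Nfya, the subunit that contacts the CCAAT box, rose from 59.5, 65.1 and 54.4 to 122, 113, 135 and 114, at 1.02 ± 0.14 (SE, adjusted p = 0.00921). Nfyc rose by 0.64 on one probe set and differed by -0.07 (adjusted p = 0.869) on another. Nfyb fell by 0.74, from 155, 140 and 133 to 95.9, 67.8, 81.7 and 98.1. Sfmbt2, a Polycomb group protein read on an f-type probe set that can match related sequences, was called at 1.53, with wild type signals of 14.4 to 21.4, and the TFIID subunit Taf10 rose by 0.67. Smarcd1, a subunit of the BAF remodelling complex, fell by 0.68. Mef2c, a neuronal activity-dependent factor, fell on 2 of 4 tested probe sets, and the 4 differences were -1.24, -1.11, -0.72 and -0.49.

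Splicing and cell cycle genes were among the rises. Of 60 splicing and RNA-binding genes 3 rose and 1 fell, with a median of 0.18. Of all genes tested, 1.29% were called higher and 2.13% lower. Srsf11, a serine and arginine rich splicing factor, was read at 352, 295 and 295 in wild type and at 452, 591, 743 and 462 in R6/2 mice, with array 3 the highest. The helicase Ddx5 rose by 0.56 and Srsf6 by 0.62, while Qk, the RNA-binding protein quaking, fell by 0.63 on one probe set and showed 0.03 on another. Of 34 cell cycle and replication genes 3 were called higher. Smc2 and Smc4 are both subunits of condensin. Smc2 was read at 20.7 to 36.9 in wild type and at 54.9 to 67.6 in R6/2 arrays, and rose by 1.20. Smc4 was read at 21.3 to 23.4, under the filter, and at 37.8 to 65.0, and was called at 1.05. Rag1, on this list but not a gene of the cell cycle itself, rose by 1.66 on an r-type probe set, a kind built under relaxed design rules. In treated mice Rag1 was read at 69.7 to 97.6 in wild type and 42.4 to 103.7 in R6/2 arrays, a difference of -0.21. None of the 3 was called without R6/2 arrays 2 and 3.

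Some of the largest rises lay near the lower end of signal. Get4, of the pathway that inserts tail-anchored proteins, was read at 8.40, 8.80 and 23.6 in wild type and at 62.2, 63.8, 38.5 and 43.6 in R6/2 mice, at 2.08 ± 0.37 (SE, adjusted p = 0.0259). Ginm1 was read at 15, 16.4 and 13.7 against 61.2, 47.2, 64.9 and 25.8. Wild type signals of both were under the filter of 24.5, so these probe sets entered the test through the R6/2 arrays and had to differ. The same held for 11 of the 94 rises, among them Sfmbt2, Akirin1, Smc4, Prps1l3 and Abcb4. Of the 159 falls, 6 had at least 3 R6/2 arrays under it, among them Gabrd, Mvd and Alas2. Probe sets carrying a letter for relaxed or shared design made up 29.8% of the rises, 18.2% of the falls and 18.7% of all tested.

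The chaperone list had 3 falls and 1 rise of 42, beside 2.13% called lower and 1.29% called higher of all genes tested. Wfs1, an endoplasmic reticulum membrane protein, was read at 317, 358 and 371 in wild type and at 189, 133, 145 and 168 in R6/2 mice, at -1.15 ± 0.15 (SE, adjusted p = 0.00831). Hspa1a and Hspa1b, nearly identical heat shock genes whose probe sets can cross-hybridise, fell by 1.09 and 1.15. Cct2, a subunit of the folding chamber TRiC, rose by 0.61. The large housekeeping lists held no call by limma. None of 56 oxidative phosphorylation, 46 proteasome and ubiquitin, 39 cytoskeleton, 32 glycolysis and citrate cycle, 29 lysosome and autophagy or 25 antioxidant genes passed, and their medians were 0.07, 0.15, -0.10, -0.10, -0.02 and 0.00. The smallest adjusted p-values among them were those of the microtubule protein Map2, at -0.87 (adjusted p = 0.0517), and the ubiquitin-like Sumo3, at 0.51 (adjusted p = 0.0536). Cox6a2, a cytochrome oxidase isoform of muscle and some neurons that stood on no list and was chosen after its values were seen, fell. It was read at 115, 119 and 94.2 in wild type and at 32.4, 43.9, 36.6 and 40 in R6/2 mice, at -1.52 ± 0.17 (SE, adjusted p = 0.00534). Of 25 ribosomal protein genes, only Rpsa was called on its brightest probe set, and it fell by 0.76. Rpl10a rose by 0.83 on one probe set and differed by -0.16 on a brighter one. Of 22 insulin, IGF and growth factor genes, Pip5k1c, a lipid kinase of presynaptic terminals, fell by 2.33, and by 1.57 without R6/2 arrays 2 and 3.

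**Figure D3:**
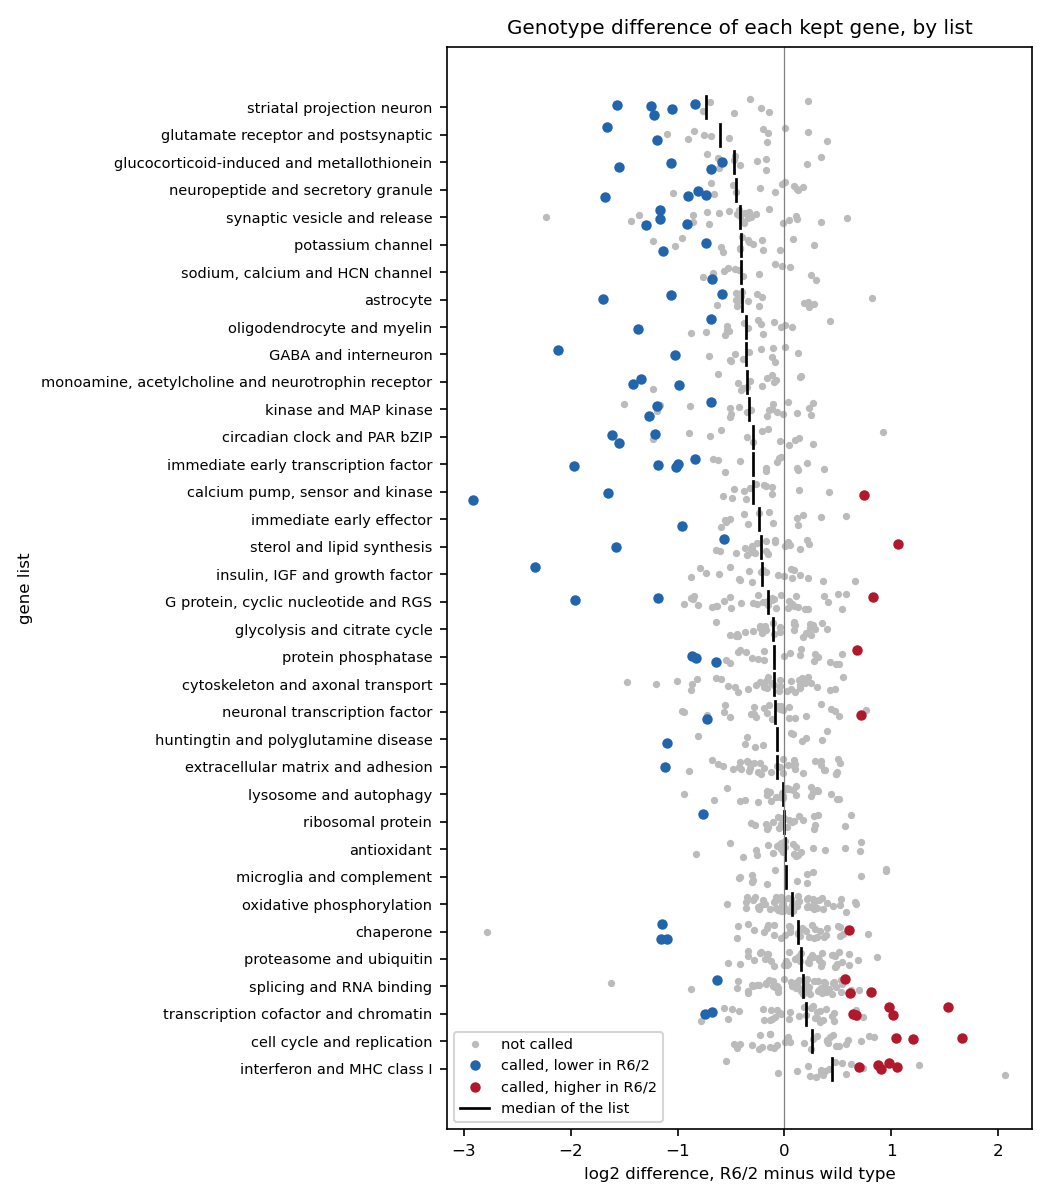
The horizontal axis is the log2 difference, R6/2 minus wild type, in untreated mice, each row is a gene list, and each point is a tested gene on its brightest probe set. Blue and red points are genes called lower and higher, grey points were not called, and the black bar is the median. The striatal projection neuron list had a median of -0.73 with 5 falls of 12, and the interferon and MHC class I list a median of 0.45 with 5 rises of 24.

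The genes of Huntington's disease itself were not called. Mouse Htt was read at 145, 142 and 130 in wild type and at 116, 113, 61.9 and 112 in R6/2 mice on one probe set, at -0.50 ± 0.22 (SE, adjusted p = 0.177), and at -0.27 on the other. These read mouse Htt, so they do not check which arrays carried the human transgene. Hap1, the huntingtin-associated protein, differed by -0.20 (adjusted p = 0.526). Atn1, which carries the glutamine repeat of dentatorubral-pallidoluysian atrophy, fell. Its signals were 238, 203 and 204 in wild type and 138, 84.0, 74.4 and 117 in R6/2 mice, at -1.10 ± 0.21 (SE, adjusted p = 0.0313). It was the only call among 12 genes of polyglutamine diseases.

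Markers of other brain regions and of blood differed between the groups as well. The summed signal of 10 hypothalamus and pituitary markers was 650 to 778 in wild type and 382 to 525 in R6/2 arrays, and 2 of the 8 tested were called. Hcrt, the precursor of the wake peptide orexin, was read at 130, 137 and 141 in wild type and at 68.1, 63.2, 30.1 and 42.9 in R6/2 mice, at -1.48 ± 0.26 (SE, adjusted p = 0.0259). Oxt, oxytocin, was read at 170, 203 and 254 against 88.4, 73.7, 71.0 and 107, at -1.30. The 8 tested genes did not move one way, with a median of -0.06 and 3 of 8 differences positive. Avp, vasopressin, and Tshb were in the sum but under the filter, and were not tested. Avp was read at 36.2, 53.5 and 64.4 in wild type and at 8, 7.9, 6.3 and 8.3 in R6/2 mice, and Tshb overlapped. Gh, growth hormone, was read at 54.5 to 65.3 in wild type and 73.4 to 87.0 in R6/2 arrays, at 0.40, and Prl, prolactin, differed by 0.73, neither called. Pomc, Lhb, Cga and Trh overlapped between the groups. The sum of 7 thalamus and midbrain markers was 1126 to 1232 against 683 to 938, Prkcd being the only call of 6. That of 7 blood markers was 2029 to 3573 against 956 to 1921. Of these Alas2, an enzyme of haem synthesis in red cell precursors, was called at -1.52, and Hba-a1 had signals of 1383 to 2639 in wild type and 578 to 1325 in R6/2 arrays. The 3 olfactory bulb markers summed to 109 to 134 and 56.0 to 88.8. Sums of 5 choroid plexus markers were 800 to 1084 against 993 to 1625, and of 10 cerebellar markers 769 to 856 against 709 to 1059. The part of these region and blood markers in the other gene differences was not tested.

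At all 253 called probe sets the groups did not overlap, so leaving out R6/2 arrays 2 and 3 could not change the sign. With 2 R6/2 arrays against 3 wild type, 171 probe sets were called (2.29%), 139 lower (1.87%) and 32 higher (0.429%). Of the 253, 125 were called again, 102 of the 159 falls and 23 of the 94 rises. The typical size was smaller, with a median ratio of 0.861 to the difference in 4 R6/2 arrays, and 21 of the 253 moved by over 1.5 times. The genes that lost most were Camk2a, Pip5k1c, Nrgn, Vamp2 and Fmnl1, the last a formin that fell by 1.78 and by 1.22 without those arrays. Bsn, a scaffold protein of the presynaptic active zone chosen after its values were seen, moved the other way, from -1.61 to -2.15. Besides those given above, the named genes that lost their call without R6/2 arrays 2 and 3 included the falls Gabrd, Chga, Kcna2, Kcnj4, Nr4a2, Ier2, Nptx2, Mt2, Nfyb, Smarcd1 and Alas2. Among the rises they included Get4, Ginm1, Akirin1, Abca1, Rgs19, Calm2, Nfyc, Sfmbt2, Cct2, Srsf6, Srsf11 and Ddx5. Other arrays mattered to the count as well. Leaving out wild type array 1, 2 or 3 left 29, 0 or 14 calls. The 0 was by limma, with a smallest adjusted p of 0.0546 and 1367 probe sets at an unadjusted p under 0.05. Leaving out R6/2 array 1, 2, 3 or 4 gave 503, 57, 240 or 565 calls. In these 7 fits too the signs of the 253 differences could not change. Their median size was 0.917 to 1.05 times that on 7 arrays.

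**Figure D4:**
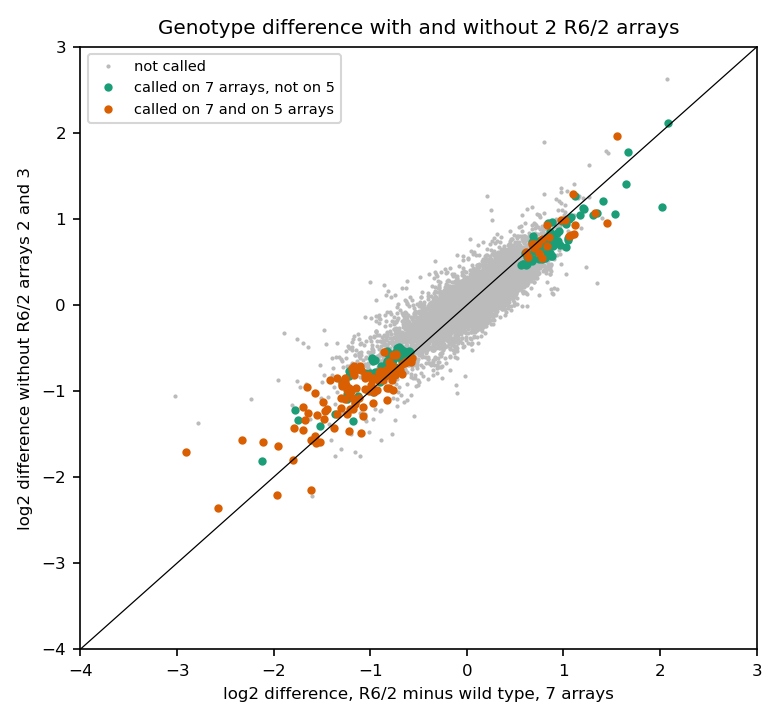
The horizontal axis is the log2 difference, R6/2 minus wild type, with 4 R6/2 arrays and the vertical axis the same without R6/2 arrays 2 and 3. The wild type arrays are shared by both axes. Each point is a tested probe set, and the line marks equal values. The 125 orange points were called both ways and the 128 green points only with all 7 arrays. The called points could not change their side of 0, because their groups did not overlap.

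The treated mice gave the same genotype contrast in arrays that the calls had not used, under a different treatment. There 74 probe sets were called (0.993%), 69 lower (0.926%) and 5 higher (0.0671%). Of the 159 falls, 135 were negative in treated mice (84.9%), beside 43.8% of all probe sets tested. Of the 94 rises, 76 were positive (80.9%), beside 56.2%. The sizes differed by direction. The median treated difference was -0.45 for the falls and 0.17 for the rises. Treated groups did not overlap, in the same direction, for 82 falls and 25 rises. Over all probe sets tested such separation was seen at 8.16% lower and 8.71% higher. By the test itself 38 falls and 1 rise, Atad2b, were called in both.

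Several falls were of like size in both sets of arrays. Penk was read at 1979, 1801 and 2077 in treated wild type and at 655, 603 and 675 in treated R6/2 mice, at -1.60 (adjusted p = 0.000187). Egr2 differed by -1.998, Arpp19 by -1.59, Bhlhe40 by -1.32, Sst by -1.26, Prkcd by -1.03 and -1.12, Dbp by -1.54 and Kalrn by -1.27, all called. In the untreated arrays the same genes differed by -1.96, -1.56, -1.62, -1.68, -1.27 and -1.30, -1.21 and -0.83. Epop, a partner of Polycomb complex 2 read on an r-type probe set, differed by -2.11 untreated and -1.81 treated. Gabrd, low in R6/2 arrays, differed by -2.12 and -2.14, the second not called (adjusted p = 0.0557). Atad2b rose by 0.97 and 0.94, and Ifitm3 differed by 0.69 and 0.71 (adjusted p = 0.0598 in treated mice). Among the other interferon calls, Irf9, Lgals3bp and Gbp7 differed by 0.42, 0.91 and -0.42 in treated mice, none of them called there.

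Other genes differed in untreated mice and not in treated mice by the test, although the difference between untreated and treated mice was not itself tested. Under treatment Syp showed 0.22, with the R6/2 arrays above wild type, Atn1 showed 0.21, Vamp2 0.18, Sncb -0.11 and Atp2b2 -0.28, none of them called. Camk2a showed -0.58 and Nrgn -0.57. Called in untreated mice both with and without R6/2 arrays 2 and 3, and separated in the same direction in treated mice, were 69 probe sets, 63 lower and 6 higher. The named rises among them were Nfya, Atad2b, Sdhaf1, Ifitm3 and Ptpro. Among the falls were Egr2, Rgs4, Agt, Sst, Bhlhe40, Arpp19, Per1, Cox6a2, Hcrt, Oxt, Prkcd, Penk, Rgs14, Wfs1, Egr1 and Kalrn. Not all of these were called in treated mice. Rgs4, Agt, Ptpro and Sdhaf1 were smaller there, at -0.86, -0.67, 0.27 and 0.36 (limma adjusted p = 0.122, 0.171, 0.511 and 0.392).

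**Figure D5:**
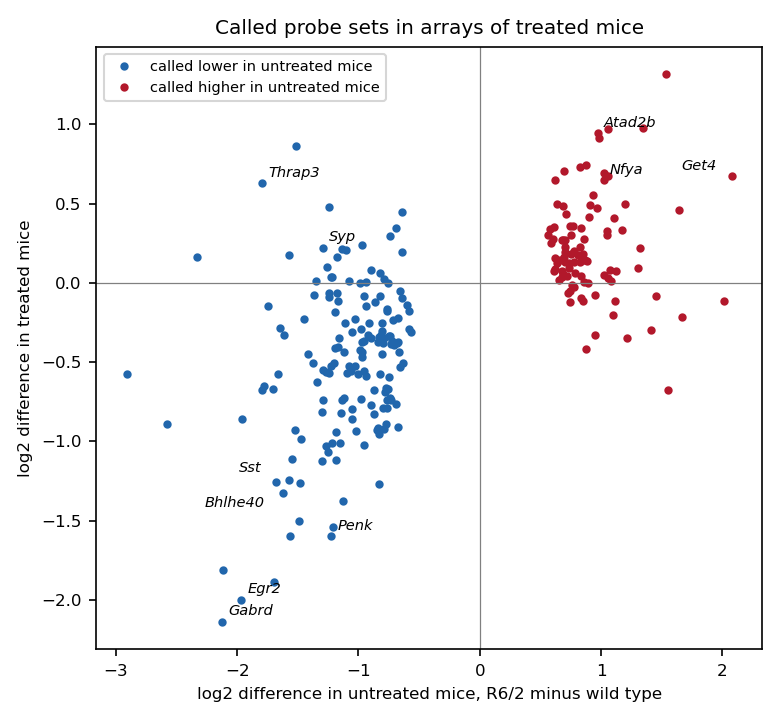
The horizontal axis is the log2 difference, R6/2 minus wild type, in untreated mice and the vertical axis the same in treated mice, for the 253 called probe sets. Blue points were called lower and red points higher in untreated mice, and no array is shared between the axes. Of the blue points 135 of 159 lie below 0 on the vertical axis, and of the red points 76 of 94 lie above it.

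Genes with several probe sets gave a further view of the calls. Of 925 genes with at least 2 tested probe sets, 514 had all of them on the same side (55.6%). Of the 54 with at least 1 call, 38 did (70.4%). With no filter on low signal the order was the reverse, at 40.9% of 22 such genes and 50.9% of 2073. Mobp, Prkcd, Mef2c and the phospholipase gene Plcb1 were the 4 genes with at least 2 calls, and no gene was called in both directions. Probe sets of 1 gene disagreed in places. Thrap3, a splicing and transcription coactivator, fell by 1.80 on one probe set, with signals of 114 to 120 in wild type and 20.2 to 55.1 in R6/2 arrays, and showed 0.14 on the brighter one, at 406 to 476 against 442 to 530. Uhmk1, a kinase that phosphorylates splicing factors, rose by 1.45 on one probe set (0.96 without R6/2 arrays 2 and 3) and differed by -1.30 (adjusted p = 0.096) and 0.07 on the others. Akirin1 was called at 1.41 on one, where wild type signals were 11.6 to 16.9, and showed -0.01 on another. The annotation does not say which transcript each probe set reads.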

How the data were processed

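Total RNA of mouse brain hemispheres was measured on 13 MG-U74Av2 arrays, of which the 7 from untreated mice were compared. The table deposited by the authors holds linear intensities, with each array at a mean of about 100 once 2% is trimmed at each end, as tested on the values. The software that made them is not given in the sources used here, and no detection calls were used. Of 12488 rows, 66 controls were left out. Probe sets were named through the array's annotation table (10833 with 1 gene, 396 with several and 1193 with none), and only those with 1 gene were named. Before taking log2, a floor of 3.1 (the 10th percentile) was applied. Tests were run on the 7453 probe sets whose mean log2 over the 7 arrays reached the 40th percentile, a signal of 24.5. Array medians lay within 6.73% of their mean, so no further normalization was applied.

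The genotype difference was estimated in limma 3.58.1 under R 4.3.3 (lmFit, eBayes with an intensity trend), two-sided, on the 7 arrays alone. Untreated R6/2 arrays varied most, and a spread shared with the treated groups would be too small for them. P-values were adjusted by Benjamini-Hochberg over the 7453 probe sets, with a threshold of 0.05. The procedure was tested on simulated data. Treated arrays were fitted separately.

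The members and the 36 gene lists were chosen with earlier results of these data known. Each listed gene is represented by its brightest probe set of its own, and lists are described by counts and medians with no set test. The genes named were the 10 largest rises and the 10 largest falls whose groups did not overlap. To these were added up to 4 called members of each list, or 2 uncalled where none was called, and Htt, Hap1, Atn1, Penk, Drd2 and Bdnf. The 5 calls that lost most without R6/2 arrays 2 and 3 were also named. So were the 5 largest rises and 5 largest falls called without them too whose treated groups lay apart in the same direction. Other genes, among them Rasgrp2, Ier2, Ifit3, Nfyb, Nfyc, Smarcd1, Plcb1, Slc25a25, Slc25a36 and those so described, were chosen after their values were seen. Prkcb, Prkce and Rpl10a were chosen in the same way. The rule on non-overlapping groups makes named values larger than typical ones. Promoters were read from the RefSeq table of GRCm38.p6, in which 106 of 138 genes called lower and 67 of 83 called higher had an entry. Alternatives were another sample set, array weights, normalization, floor, filter and leaving out arrays.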

Additional observations from a re-analysis of the deposited data

Results flagged for a closer look

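In 3 of 107 named genes 1 R6/2 untreated array lay far from the other 3, by a gap test that flags about 1 in 20 groups by chance. Rgs14 was read at 146.6 in array 3, beside 199, 204 and 199 in arrays 1, 2 and 4. Bcan was read at 158.7 in array 2, beside 178, 176 and 179. Htt was read at 61.9 in array 3, beside 116, 113 and 112. In 2 genes the groups were apart in opposite directions in untreated and treated mice, a difference that was not tested. Syp differed by -1.29 in untreated and by 0.22 in treated mice, and Htt by -0.50 and 0.36. Neither treated difference was called (limma adjusted p = 0.538 and 0.494).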

How the results depend on the processing

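No paired analysis was possible because the numbers in the titles differ for every untreated array and are shared by no pair of groups. The count of 253 calls became 892 with all 13 arrays in the fit, 727 with array weights and 79 with no filter on low signal, and ranged from 0 to 565 when single untreated arrays were left out (29, 0 and 14 without wild type array 1, 2 and 3, and 503, 57, 240 and 565 without R6/2 array 1, 2, 3 and 4). It was 306 after quantile normalization, 347 after median centring, 329 with a pseudocount of 16, 270 with a floor at the 25th percentile and 276 with a filter at the 60th percentile. Of genes with several probe sets and a call, 38 of 54 (70.4%, above the 55.6% of all such genes) had all on one side, but 9 of 22 with no filter (40.9%, below 50.9%), so this comparison turns round. Because the groups of called genes did not overlap, leaving out arrays could not change their sign. No called named gene changed sign under the other settings either. Of those not called, Bdnf went from 0.13 to -0.27 without R6/2 arrays 2 and 3 together and to -0.0067 and -0.0023 without array 2 or 3 alone, and Hap1 from -0.20 to 0.08 without both. Of 107 named genes, 68 lost their call with no filter, where p-values are adjusted over 12422 probe sets. The small number of arrays limits how firmly any single call stands.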
